A study of Rattus norvegicus with 30 samples.

Results

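*Cnr1*, *Faah* and *Mgll* encode the main cannabinoid receptor of the brain and the main hydrolases of its lipid ligands. Each of the 3 genes was read by 1 probe of an Illumina rat expression array (ILMN_1374666 for *Cnr1*, ILMN_1357566 for *Faah* and ILMN_1369012 for *Mgll*). The probes were taken by gene symbol from the platform annotation, and the genes were chosen with earlier results of these data known. They are 3 of 13337 genes with a named probe, and are described here in the hippocampus of 29 adult Sprague Dawley rats, with 1 rat per array.

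Endocannabinoids are lipids that neurons make on demand at the postsynaptic side and that act backwards on the presynaptic terminal. Their receptor CB1, the product of *Cnr1*, couples to inhibitory G proteins and lowers transmitter release, and in the hippocampus it is densest on the terminals of cholecystokinin interneurons. Fatty acid amide hydrolase, from *Faah*, breaks down anandamide. Monoacylglycerol lipase, from *Mgll*, breaks down 2-arachidonoylglycerol (2-AG) in terminals and in astrocytes.

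The series asks which hippocampal transcripts differ with exposure to predator scent, a stressor used in rodents, and which differ between exposed rats that responded strongly and those that responded little. The groups were female extreme responders, female minimal responders and female controls, with 5 rats each. In males there were 5 extreme responders, 4 minimal responders with values and 5 controls. Extreme and minimal responders had been exposed to the scent and were separated by their behaviour. Controls had not been exposed, but had gone through the behavioural tests. Within the responders the division is therefore a selection on behaviour, not a treatment. The rats of the 2 sexes carry separate series of identification numbers, so sex and any difference between those cohorts cannot be told apart.

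Values are the deposited array intensities, read as log2, so a difference of 1 is a doubling. All 3 probes lay above background (7.03) on all 29 arrays. Of the 22523 probes, 11888 passed the background filter and were fitted together with limma, with p-values adjusted by Benjamini-Hochberg over all 11888 and a threshold of 0.05. An array holds no read depth, and the number of rats limits the precision. The markers of glutamatergic hippocampal neurons passed the filter, with mean levels of 11.2 for *Neurod6*, 9.10 for *Slc17a7* and 7.22 for the granule cell gene *Prox1*. All 5 striatum markers passed too (means from 7.35 for *Drd1* to 10.1 for *Ppp1r1b*), as did all 5 choroid plexus markers, so detection of these genes does not tell hippocampus from its neighbours. No Y-linked gene or *Xist* of the marker list had a probe, so the labelled sex was not checked.

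Some arrays stood apart. Values of 8 probes, among them *Rpl37l1*, *Rpl7* and *Rpl23*, divided the rats into an array set A of 12 and an array set B of 17, a division seen in the data and absent from the labels. Set A held 0 of 10 extreme responders, 6 of 9 minimal responders (3 of each sex) and 6 of 10 controls (3 of each sex). The array set therefore moves with the extreme response, and the main differences below are also given with the set as a block in the fit. Apart from the sets, 4 rats (female extreme 5, female minimal 3, female control 2 and male minimal 2) had high choroid plexus transcripts, with a mean of 9.71 to 10.32 over 5 marker genes against 6.83 to 8.72 in the other 25 rats. Male extreme 4 had the lowest median correlation with the other arrays (0.964).

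*Cnr1* was lower in extreme than in minimal responders of both sexes, by 0.32 on the log2 scale, or 0.803-fold. This was the 1 call for the 3 genes over 11 comparisons, in a comparison in which 7.95% of all probes passed. It was lost with the array set as a block (−0.30, adjusted p = 0.110, limma). The difference between minimal responders and controls was near 0 in females and did not pass in either sex. In bulk tissue, fewer cells that make a transcript and less of it per cell cannot be told apart.

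*Cnr1* had levels of 7.91, 7.62, 8.01, 7.58 and 7.57 in female extreme responders, of 7.87, 7.95, 7.81, 8.09 and 7.98 in female minimal responders, and of 7.75, 7.96, 7.89, 8.08 and 7.96 in female controls. Of the 5 female extreme responders, 3 lay below every female of the other groups, while female extreme 1 and 3 lay among them. *Cnr1* had levels of 7.79, 7.70, 7.82, 7.24 and 7.83 in male extreme responders, of 8.06, 7.84, 8.10 and 8.44 in male minimal responders, and of 7.88, 7.85, 7.94, 8.25 and 7.97 in male controls. All 5 male extreme responders lay below the lowest of the other 9 males, although narrowly, with 7.83 in male extreme 5 and 7.84 in male minimal 2. The lowest of all 29 rats was male extreme 4 (7.24), the array that correlated least with the rest, and the highest was male minimal 4 (8.44). The share of all probes that set the male extreme responders apart from all other males was not counted.

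Over both sexes, 6 of the 10 extreme responders lay below the lowest of the 9 minimal responders, and 9 of 10 lay below the minimal responders' median of 7.98. The *Cnr1* difference between extreme and minimal responders was −0.32 ± 0.08 (SE, adjusted p = 0.0183, limma), with a 95% interval from −0.49 to −0.15. A call was common in this comparison, and *Cnr1* ranked 435 of 11888 by p. The value with the array set as a block had an SE of 0.10 and an unadjusted p of 0.00618, in a fit in which 2.05% of probes passed. Among the 17 rats of set B alone, which hold 1 male minimal responder, the value was −0.35 ± 0.13 (adjusted p = 0.319, limma). With the groups in the fit, set A minus set B was 0.02 ± 0.09 for *Cnr1* (adjusted p = 0.900, limma). Set A held no extreme responder, so that value rests on minimal responders and controls alone. Without regard to group, the *Cnr1* means were 8.00 in set A and 7.81 in set B. Without male minimal 4 the difference was −0.26 and no longer passed (adjusted p = 0.0578). Without male extreme 4 it was also −0.26 and passed (adjusted p = 0.0284). Without the 4 rats high in choroid plexus transcripts it was −0.36 (adjusted p = 0.0260).

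**Figure D1:**
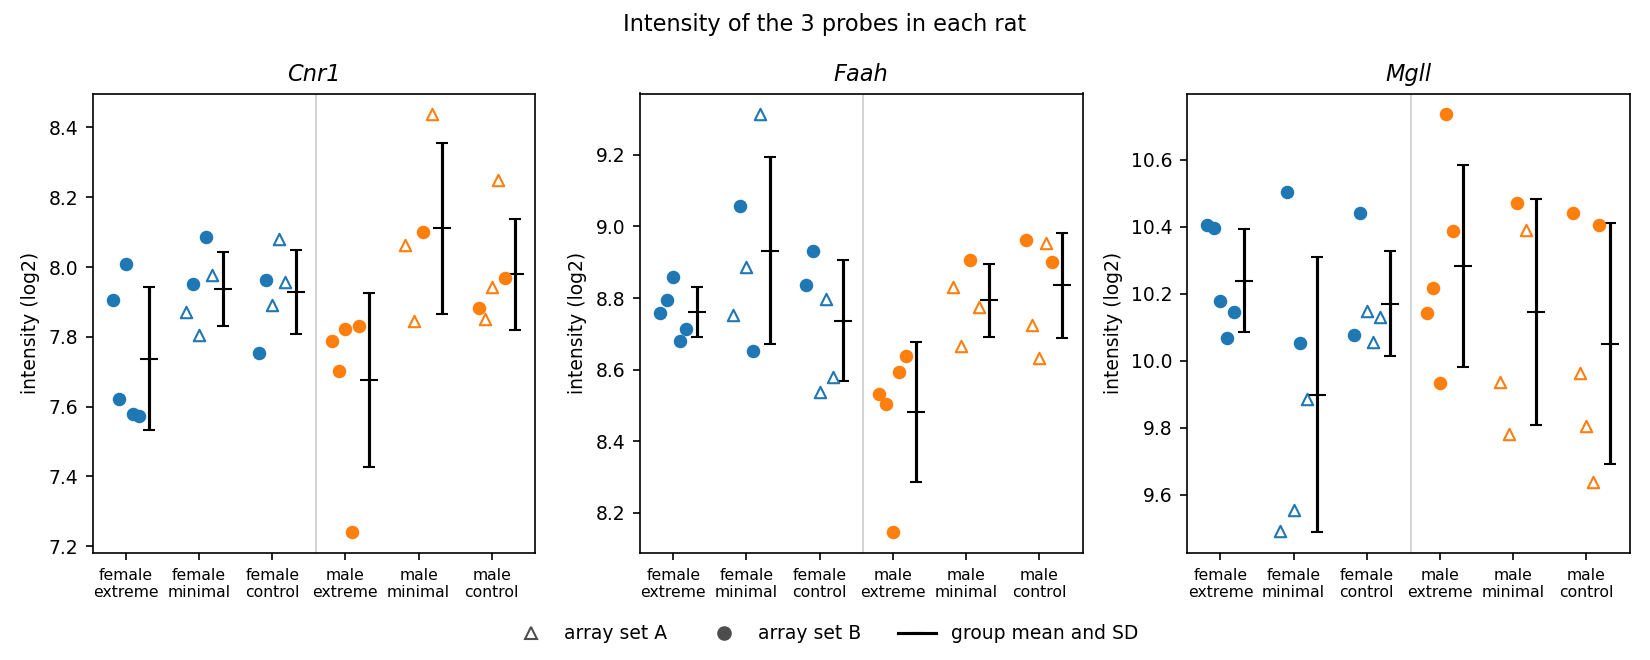
Intensity (log2, vertical axis) of *Cnr1*, *Faah* and *Mgll* in each rat, by group, with females in blue and males in orange. Open triangles are rats of array set A and filled circles rats of set B, and black marks give the group mean and SD. *Cnr1* is below all other males in the 5 male extreme responders, a separation whose share over all probes was not counted. For *Mgll* the triangles lie low in female minimal responders and male controls.

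Within each sex, the *Cnr1* difference had the same direction and did not pass. In females it was −0.20 ± 0.11 between extreme and minimal responders (adjusted p = 0.360, limma), where 3.79% of probes passed. Against female controls it was −0.19 ± 0.11 in extreme responders (adjusted p = 0.496), where 1% of probes passed. In males *Cnr1* differed by −0.43 ± 0.12 between extreme and minimal responders (adjusted p = 0.103), where 0.0757% of probes passed. Against male controls it differed by −0.30 ± 0.11 in extreme responders (adjusted p = 0.177), where 0.622% of probes passed, and without male extreme 4 by −0.19. With the set as a block these 4 values were −0.19, −0.18, −0.42 and −0.29, in the same order, and none passed. The male values were larger, but the sex difference itself, male minus female, was −0.23 ± 0.17 with a 95% interval from −0.57 to 0.11 (adjusted p = 0.779). Without male extreme 4 or without male minimal 4 it was −0.12.

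Between minimal responders and controls, the *Cnr1* difference was 0.01 ± 0.11 in females (95% interval −0.22 to 0.24) and 0.13 ± 0.12 in males (−0.11 to 0.38). In both of these comparisons 0% of probes passed with limma, with 1314 probes in females and 504 in males at an unadjusted p under 0.05. Ordered by mean, *Cnr1* stood at 7.68 ± 0.25 (SD, n = 5) in male extreme responders, 7.74 ± 0.20 (n = 5) in female extreme responders, 7.93 ± 0.12 (n = 5) in female controls, 7.94 ± 0.11 (n = 5) in female minimal responders, 7.98 ± 0.16 (n = 5) in male controls and 8.11 ± 0.25 (n = 4) in male minimal responders. No step between neighbours in that order exceeded the larger of their SDs.

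In a list for cholecystokinin and other CB1-bearing interneurons, no gene but *Cnr1* itself passed in the comparison of extreme with minimal responders. Its genes *Gad1* and *Gad2* are not specific to those cells. In a separate list of 5 markers of other interneurons 0 passed and 4 had a higher value (median 0.13). Of the 4 genes with a kept probe beside *Cnr1* in the first list, *Cck* differed by −0.23 ± 0.12 between extreme and minimal responders and *Gad1* by 0.26 ± 0.10. *Vip* differed by 0.04 ± 0.19 and *Gad2* by 0.00 ± 0.17 (adjusted p of the 4 from 0.120 to 0.993, limma). In the same comparison 2 of 5 oligodendrocyte markers rose, *Cnp* by 0.47 ± 0.11 and *Olig1* by 0.31 ± 0.09, and all 5 had a higher value (median 0.31, against −0.00430 over all probes), where 7.95% of all probes passed. The mean level of that list ran from 11.00 to 11.47 in female extreme and from 10.65 to 11.32 in female minimal responders, and from 10.93 to 11.50 in male extreme and from 10.57 to 11.24 in male minimal responders. The glutamate transporter *Slc1a2* rose by 0.25 ± 0.08 as 1 of 5 astrocyte markers, and *Adora2a* fell by 0.26 ± 0.07 as 1 of 5 striatum markers. None of these 4 calls over both sexes held with the array set as a block (adjusted p from 0.120 to 0.427). In female extreme against minimal responders, however, *Cnp* and *Olig1* rose by 0.52 and 0.55, where 3.79% of all probes passed. *Olig1* passed with the block as well (0.50, adjusted p = 0.0272, limma), where 3.26% of all probes passed. The part of these genes in the *Cnr1* result was not tested.

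*Faah* had lower values in male extreme responders than in most other males, and it came close to the threshold without passing. In females the extreme responders lay within the range of the other groups.

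*Faah* had levels of 8.53, 8.50, 8.15, 8.59 and 8.64 in male extreme responders, of 8.83, 8.67, 8.91 and 8.77 in male minimal responders, and of 8.96, 8.73, 8.63, 8.95 and 8.90 in male controls. All 5 male extreme responders lay below the lowest male minimal responder, and 4 of 5 lay below the lowest male control, the exception being male extreme 5. How many of all probes separate male extreme from minimal responders was not counted. *Faah* had levels of 8.76, 8.80, 8.86, 8.68 and 8.71 in female extreme responders, of 8.75, 9.06, 8.89, 8.65 and 9.31 in female minimal responders, and of 8.84, 8.93, 8.54, 8.80 and 8.58 in female controls. The female groups overlapped throughout, and the highest value of all rats was that of female minimal 5 (9.31).

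The *Faah* difference between male extreme responders and male controls was −0.35 ± 0.11 (SE, adjusted p = 0.0928, limma), or 0.783-fold. Between male extreme and minimal responders it was −0.31 ± 0.11 (adjusted p = 0.186). With the array set as a block these values were −0.41 ± 0.11 (adjusted p = 0.0868) and −0.39 ± 0.12 (adjusted p = 0.240), and within set B the difference from male controls was −0.45 ± 0.13 (adjusted p = 0.316). In females *Faah* differed by 0.02 ± 0.11 between extreme responders and controls (95% interval −0.19 to 0.24), by −0.17 ± 0.11 between extreme and minimal responders (adjusted p = 0.414) and by 0.20 ± 0.11 between minimal responders and controls (adjusted p = 0.496). Without female minimal 5 the last 2 values were −0.075 and 0.10.

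Over both sexes *Faah* differed by −0.24 ± 0.08 between extreme and minimal responders, with an adjusted p of 0.0519 in limma, just outside the threshold. Of the 10 extreme responders 9 lay below the minimal responders' median of 8.83, and 5 lay below the lowest minimal responder. The value passed with a filter that required signal on all arrays (adjusted p = 0.0428) and on leaving out any of 7 single rats, and it did not pass with the set as a block (−0.31 ± 0.09, adjusted p = 0.0719). With the groups in the fit, *Faah* stood at −0.10 ± 0.08 in array set A relative to set B (adjusted p = 0.409, limma). Its means without regard to group were 8.79 in set A and 8.73 in set B.

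The effect of exposure on *Faah* was −0.31 ± 0.13 in males relative to females (95% interval −0.58 to −0.04). Adjusted over all probes kept, its p was 0.460, and 0% of probes passed for this sex difference with limma, with 1150 at an unadjusted p under 0.05. By mean, male extreme responders (8.48 ± 0.20, SD, n = 5) stood lowest, and the step of 0.25 to female controls (8.74 ± 0.17, n = 5) exceeded the larger of their SDs. Above them, female extreme responders (8.76 ± 0.07, n = 5), male minimal responders (8.79 ± 0.10, n = 4), male controls (8.84 ± 0.15, n = 5) and female minimal responders (8.93 ± 0.26, n = 5) followed in steps smaller than their SDs.

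*Mgll* differed between the array sets and passed in none of the 11 comparisons of groups. Of its 5 differences between extreme responders and other rats, 4 turned sign once the set was in the fit.

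*Mgll* had levels of 10.41, 10.40, 10.18, 10.07 and 10.15 in female extreme responders, of 9.49, 10.50, 9.56, 10.05 and 9.89 in female minimal responders, and of 10.08, 10.44, 10.15, 10.06 and 10.13 in female controls. The female extreme responders lay inside the range of the minimal responders, which was the widest of the female groups. *Mgll* had levels of 10.14, 10.22, 9.93, 10.74 and 10.39 in male extreme responders, of 9.94, 9.78, 10.47 and 10.39 in male minimal responders, and of 10.44, 9.96, 9.81, 9.64 and 10.41 in male controls. The male groups overlapped, with the highest value of all rats in male extreme 4 (10.74).

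The extreme responders had no rat in set A. In the groups with rats of both sets, those of set A were mostly the low ones. In male controls the 3 rats of set A ran from 9.64 to 9.96 and the 2 of set B from 10.41 to 10.44. In female minimal responders the 3 of set A ran from 9.49 to 9.89 and the 2 of set B from 10.05 to 10.50. In female controls the sets overlapped, with 10.06 to 10.15 in set A and 10.08 to 10.44 in set B. In male minimal responders the 3 of set A ran from 9.78 to 10.39 and the 1 of set B had 10.47. With the groups in the fit, *Mgll* was lower in set A, at −0.46 ± 0.10 relative to set B (SE, adjusted p = 0.00204, limma), a contrast in which 18.9% of all probes passed.

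Without the set in the fit, *Mgll* differed by 0.34 ± 0.18 between female extreme and minimal responders (adjusted p = 0.305) and by 0.23 ± 0.18 between male extreme responders and controls (adjusted p = 0.530). The male value was 0.12 without male extreme 4 and 0.13 without male control 4. With the set as a block the female and male differences became 0.06 ± 0.15 and −0.04 ± 0.15. Over both sexes the difference between extreme and minimal responders was 0.24 ± 0.13 (adjusted p = 0.260) without the set and −0.07 ± 0.12 (adjusted p = 0.805) with it. The difference between female minimal responders and controls, groups with equal numbers in set A, was −0.27 in both fits (SE 0.18 and 0.14, adjusted p = 0.594 and 0.378), but 0.02 within set B. It was −0.17 without female minimal 1 and −0.42 without female minimal 2.

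By mean, *Mgll* ran from 9.90 ± 0.41 (SD, n = 5) in female minimal responders over 10.05 ± 0.36 (n = 5) in male controls, 10.15 ± 0.34 (n = 4) in male minimal responders, 10.17 ± 0.16 (n = 5) in female controls and 10.24 ± 0.15 (n = 5) in female extreme responders to 10.28 ± 0.30 (n = 5) in male extreme responders. No neighbours in that order differed by more than the larger of their SDs. Its residual SD of 0.30 was larger than that of 94.1% of the probes kept, against 0.19 for *Cnr1* and 0.17 for *Faah*.

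**Figure D2:**
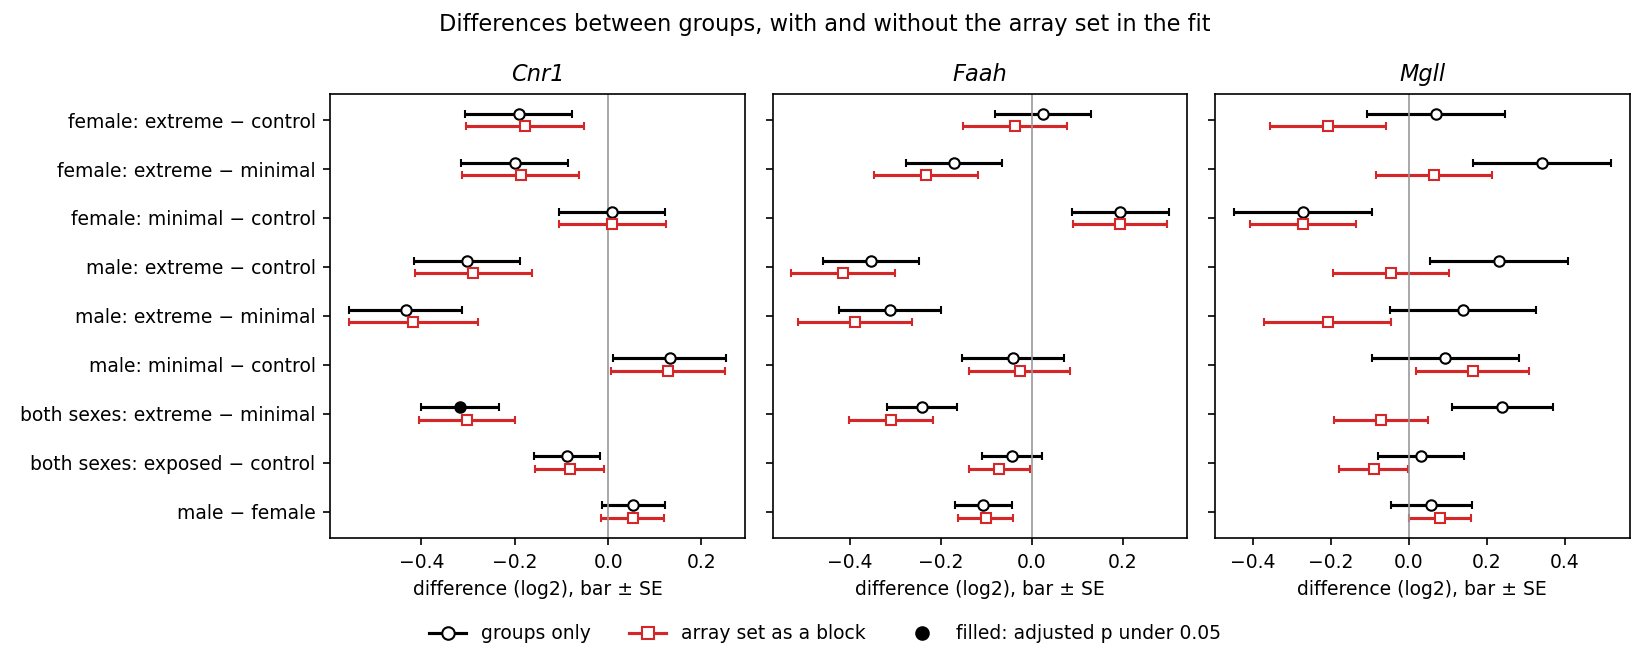
Log2 difference (horizontal axis) of *Cnr1*, *Faah* and *Mgll* in 9 comparisons, the first-named group minus the second, with bars of 1 SE. Black circles are from the fit with groups only, red squares from the fit with the array set as a block, and a filled symbol has an adjusted p under 0.05. The 1 filled symbol is *Cnr1* in extreme against minimal responders of both sexes (−0.32), and the *Mgll* values of extreme responders move down with the block.

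Exposure to predator scent was taken as the mean of the exposed groups (19 rats) minus the mean of the control groups (10 rats), with equal weight per group. The exposed groups are the extreme and minimal responders. The exposure difference did not pass for any of the 3 genes, and 0.109% of all probes passed. *Cnr1* differed by −0.09 ± 0.07 (95% interval −0.23 to 0.06), *Faah* by −0.04 ± 0.07 (−0.18 to 0.09) and *Mgll* by 0.03 ± 0.11 (−0.19 to 0.25).

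No difference between male and female rats passed for the 3 genes either. Male minus female was 0.05 ± 0.07 for *Cnr1*, −0.11 ± 0.06 for *Faah* and 0.06 ± 0.10 for *Mgll* (adjusted p = 0.817, 0.548 and 0.885, limma), and 0.21% of probes passed. For the sex difference between extreme and minimal responders 0% of probes passed with limma, with 932 at an unadjusted p under 0.05, and *Faah* stood at −0.14 ± 0.15 and *Mgll* at −0.20 ± 0.26. Leaving out 1 rat moved these to between −0.24 and −0.056 for *Faah* and between −0.35 and −0.094 for *Mgll*.

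The members did not all vary together over the 29 arrays, which share the groups and array sets. Pearson's r between *Cnr1* and *Faah* was 0.33, and 0.05 once group means were removed. Between *Faah* and *Mgll* it was 0.04, and 0.43 once group means were removed. Between *Cnr1* and *Mgll* it was −0.19 and −0.04. After group and set means were removed, r was 0.07, 0.36 and −0.01 for these pairs, in the same order. Within groups, the highest of these values was thus that of *Faah* with *Mgll*.

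Of the other 43 genes of a list for the endocannabinoid pathway, 35 had a probe and 30 were kept. The receptor genes *Cnr2*, *Ppara* and *Pparg* were below background, as was *Dagla*, the main neuronal synthase of 2-AG, so their levels were not measured here. In extreme against minimal responders of both sexes, 1 of the 30 rose and 1 fell (median 0.05, against −0.00430 over all probes), beside 7.95% of all probes.

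The gene that fell was *Ptgs2*, cyclooxygenase-2, which oxidises 2-AG and anandamide as well as arachidonic acid. It had levels of 10.49, 10.29, 10.13, 10.08 and 9.90 in female extreme responders and of 10.23, 10.56, 10.54, 10.18 and 10.55 in female minimal responders. In males it had levels of 9.85, 10.14, 10.05, 9.94 and 10.28 in extreme responders and of 10.61, 10.07, 10.29 and 10.69 in minimal responders. The extreme responders were mostly the lower ones, with overlap in both sexes. *Ptgs2* differed by −0.30 ± 0.09 (adjusted p = 0.0440, limma), and by −0.14 with the set as a block (adjusted p = 0.488).

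The gene that rose was *Gnai1*, an inhibitory G protein subunit. It was above background in 5 of 10 extreme responders and in 0 of 9 minimal responders. The means were 7.06 and 6.83, on either side of the background of 7.03, so the size of the rise was not measured (adjusted p = 0.0182, limma, or 0.120 with the block). Among controls *Gnai1* was above background in 1 of 5 females and 0 of 5 males. Its probe therefore passed the filter of 5 arrays through the extreme responders, and its call is not independent of that group. Some others are named for their role. Among enzymes of ligand breakdown, *Abhd6*, a further 2-AG hydrolase, differed by −0.10 ± 0.06 and *Naaa*, an acid amidase, by 0.11 ± 0.06. The synthases *Daglb* and *Napepld* differed by −0.02 ± 0.07 and 0.01 ± 0.07, and *Cnrip1*, which binds the tail of CB1, by 0.15 ± 0.07. None of these passed. *Naaa* and *Napepld* lay near background, with means of 7.05 and 6.90 over all arrays.

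**Figure D3:**
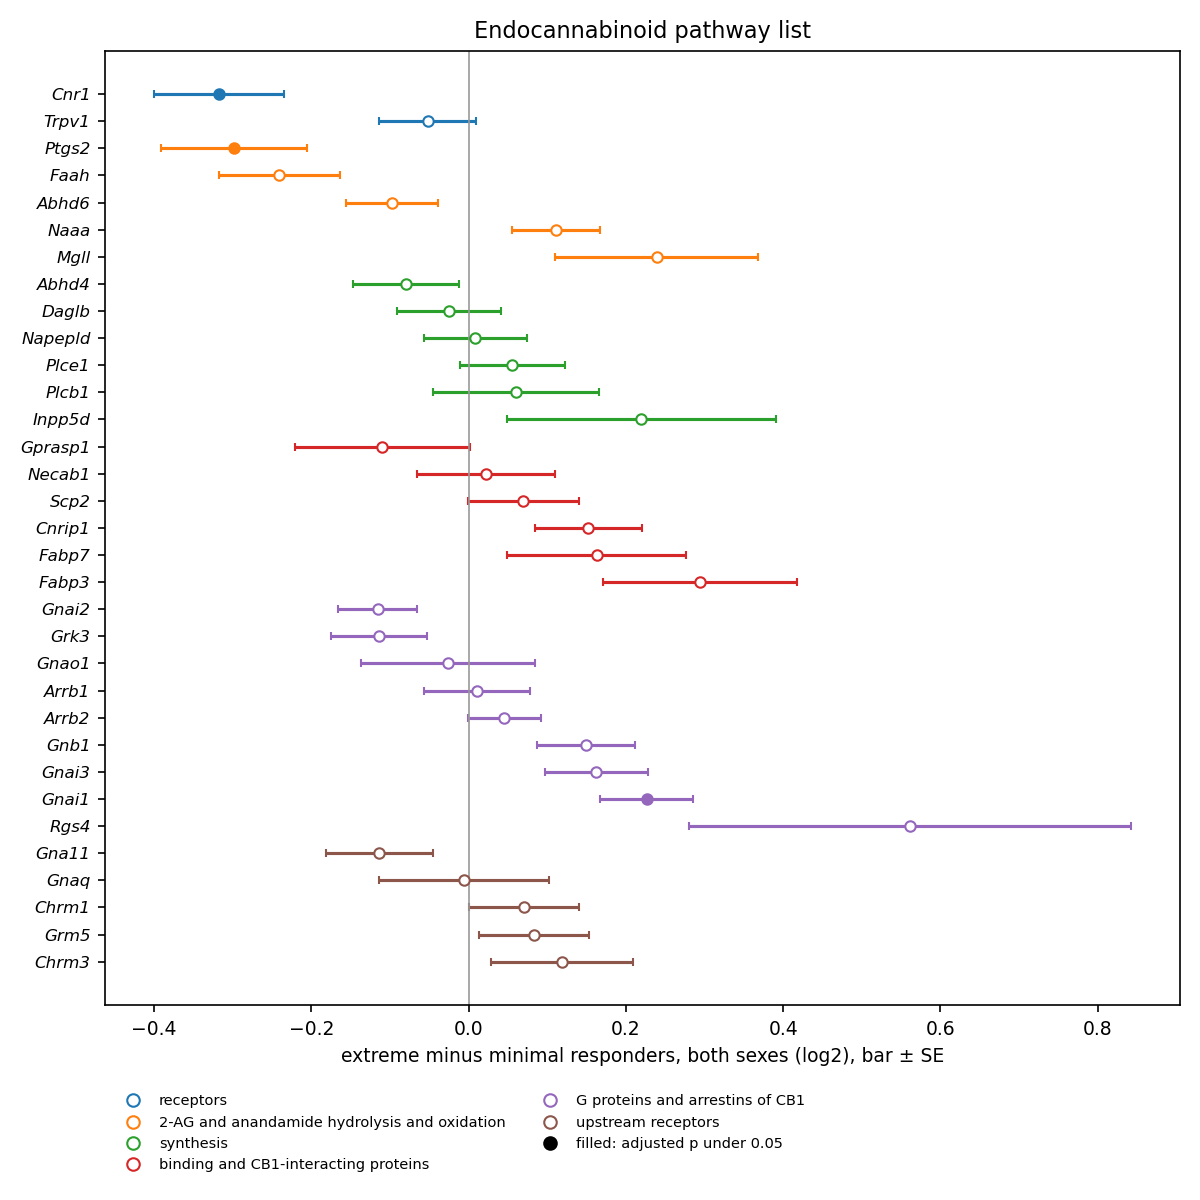
Log2 difference between extreme and minimal responders of both sexes (horizontal axis, bars of 1 SE) for the 33 genes of the endocannabinoid pathway list with a kept probe, the 3 members included, grouped by role in colour. Filled symbols have an adjusted p under 0.05: *Cnr1* and *Ptgs2* are lower in extreme responders and *Gnai1* is higher.

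In female extreme against minimal responders, 1 of the 30 genes rose and 1 fell, where 3.79% of all probes passed. *Gnai2*, which encodes another inhibitory G protein subunit, had levels of 12.00, 12.29, 12.24, 12.29 and 12.26 in extreme responders and of 12.40, 12.43, 12.46, 12.51 and 12.59 in minimal responders, with no overlap. How many of all probes separate female extreme from minimal responders was not counted. *Gnai2* fell by 0.26 ± 0.07 (adjusted p = 0.0294, limma), and the value with the set as a block was −0.24 (adjusted p = 0.0779). *Fabp7*, a fatty acid-binding protein of astrocytes and progenitors that carries anandamide in cells, rose by 0.54 ± 0.16 (adjusted p = 0.0460), and with the block it was at 0.51 (adjusted p = 0.0943).

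In the other 9 comparisons 0 of the 30 genes passed with limma, where 0% to 1% of all probes passed, and the 2 genes with the smallest unadjusted p are given for each. In female extreme responders against controls these were *Gnai2* (−0.22 ± 0.07) and *Ptgs2* (−0.29 ± 0.13). In female minimal responders against controls they were *Fabp7* (−0.74 ± 0.16, adjusted p = 0.0891) and *Cnrip1* (−0.26 ± 0.09). In males they were *Gnai1* and *Fabp7* (−0.36 ± 0.16) in extreme responders against controls, and *Gnai1* and *Ptgs2* (−0.36 ± 0.14) in extreme against minimal responders. *Gnai1* was above background in 2 of 5 male extreme responders, 0 of 4 male minimal responders and 0 of 5 male controls. The size of both *Gnai1* differences was therefore not measured (adjusted p = 0.184 against minimal responders and 0.169 against controls, limma). In male minimal responders against controls they were *Gnai2* (−0.16 ± 0.07) and *Plce1*, a phospholipase C, which was above background in 2 of 4 minimal responders and 0 of 5 controls. *Fabp7* (−0.36 ± 0.10) and *Gnai2* (−0.12 ± 0.04) had the smallest p for exposure. For male minus female they were *Gnai3* (−0.18 ± 0.05) and the muscarinic receptor gene *Chrm3* (−0.19 ± 0.07). The sex difference in exposure had *Arrb1*, beta-arrestin 1 (0.30 ± 0.11), and *Gnai3* (0.28 ± 0.11), and that between extreme and minimal responders had *Fabp7* (−0.76 ± 0.23) and *Gnai2* (0.29 ± 0.10). The adjusted p of all these ran from 0.0891 to 0.998.

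Over the 29 arrays, the genes whose values were most like those of *Cnr1* were *Drap1* (Pearson's r = 0.78), *Stn1* (0.77), *Mical1* (0.77), *Eif4e3* (0.76) and *Mrtfa* (0.74). For *Faah* they were *Recql4* (0.74), *Sstr4* (0.70), *Tmc1* (0.70), *Hoxc9* (0.67) and *Arfrp1* (0.66), and for *Mgll* they were *Mprip* (0.82), *Svop* (0.81), *Pi4k2a* (0.81), *Cbx6* (0.78) and *Man1b1* (0.78). After group and set means were removed, these values ran from 0.59 to 0.70 for the genes like *Cnr1*, from 0.48 to 0.72 for those like *Faah* and from 0.59 to 0.80 for those like *Mgll*. The arrays share groups and sets, and the genes were picked as the highest of all, so the values are a description. Against the cell markers, *Mgll* had r = 0.64 with *Slc17a7*, the vesicular glutamate transporter, and 0.42 after group and set means were removed. *Faah* had r = 0.47 and 0.63 with *Slc17a7*, and *Cnr1* 0.05 and 0.22. Against interneuron markers after that removal, *Cnr1* had r = −0.38 with *Cck*, −0.12 with *Gad1* and 0.10 with *Gad2*. *Faah* had 0.19, −0.43 and −0.69 with the same 3 genes, and *Mgll* 0.14, −0.24 and −0.15. With the astrocyte genes *Gfap* and *Aqp4*, *Mgll* had r = 0.26 and 0.35, and 0.08 and 0.02 after that removal. After it, *Cnr1* had 0.13 and 0.02 with them, and *Faah* −0.04 and 0.07.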

How the data were processed

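Total RNA of dissected hippocampus was labelled as biotinylated cRNA and hybridised to Illumina arrays, per the labels' protocols. The deposited values are log2 intensities normalised by the authors between arrays. The log base was read from their range (6.31 to 15) and the normalisation from sorted columns that agree within 0.00119. The sources used here do not give the software, background correction or genome build. A column of 1 male minimal responder held no values, and 60 columns of a second table, whose names match no label, were not used. Of the 22523 probes, 13793 carried 1 gene symbol and 8730 none. The members matched the current RefSeq gene table by gene ID for 2 genes and by symbol for all 3.

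A probe was kept when above 7.03 (background mode 6.7 plus 3 background SDs of 0.109) on at least 5 arrays, which left 11888. One model held all 6 groups, fitted by lmFit and eBayes of limma 3.58.1 under R 4.3.3. It had 23 residual degrees of freedom and a prior of 5.06. Two-sided p-values were adjusted with the Benjamini-Hochberg method in each of 11 comparisons. Named genes are the members, and of the pathway list those that passed, at most 4 per comparison, or the 2 with the smallest p where none passed. *Abhd6*, *Naaa*, *Daglb*, *Napepld* and, for extreme against minimal responders of both sexes, *Cnrip1* were named outside that rule, after their values were seen. The 5 genes most like a member were taken by Pearson's r. Alternatives were 2 other filters, cyclic loess, a variance trend with robust prior, array weights, each sex alone, replicate number as a block, array set as a block, set B alone, and leaving out each rat. Leaving out the rats high in choroid plexus transcripts, and set B with its 1 male minimal responder, were added after seeing the values. The members and lists were chosen with earlier results of these data known. Figures were drawn with matplotlib 3.10.9 in Python 3.11.15.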

Additional observations from a re-analysis of the deposited data

Results flagged for a closer look

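In 3 of the 18 combinations of gene and group, the end value lay far from the rest by Dixon's ratio at the 95% level, which chance alone gives in about 1 of 20 groups. *Cnr1* in male extreme 4 (7.24) lay below the other 4 male extreme responders, with a gap of 0.783 of the group's range. *Faah* in male extreme 3 (8.15) lay below the other 4 male extreme responders, with a gap of 0.728 of the range. *Mgll* in female control 2 (10.44) lay above the other 4 female controls, with a gap of 0.760 of the range. Female control 2 was 1 of the 4 rats high in choroid plexus transcripts and lay in array set B. *Mgll* was 10.15 in female extreme 5, 9.56 in female minimal 3 and 9.78 in male minimal 2, which were also high in them. Male extreme 4 correlated least with the other arrays. Whether these traits bear on the flagged values was not tested.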

How the results depend on the processing

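Of 306 values of the 3 genes under alternatives other than leaving out a rat, 287 kept their direction and their side of the threshold. The *Cnr1* difference between extreme and minimal responders of both sexes lost its call when the fit held the array set (−0.30) and in the rats of set B alone (−0.35), where fewer rats were fitted. That of *Faah* passed with the filter on all arrays (−0.24), where fewer probes were tested. With the set as a block, signs turned for *Faah* in female extreme responders against controls (−0.037). For *Mgll* they turned in female extreme responders against controls (−0.21), male extreme responders against controls (−0.045) and against minimal responders (−0.21), exposure (−0.091) and extreme against minimal of both sexes (−0.072). Within set B, signs turned for *Faah* in female extreme (−0.12) and minimal responders (−0.029) against controls. For *Mgll* they turned in female extreme responders against controls (−0.020) and minimal responders (−0.039), female minimal responders against controls (0.019), male extreme responders against controls (−0.14) and minimal responders (−0.19), exposure (−0.024) and extreme against minimal of both sexes (−0.11). Without the 4 rats high in choroid plexus transcripts, *Faah* in male minimal responders against controls stood at 0.0013. Beyond the construction of each alternative, the cause was not tested.

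Of 957 values with 1 rat left out, 923 kept both. In extreme against minimal responders of both sexes, *Cnr1* ran from −0.36 to −0.26 and lost its call without male minimal 4, and *Faah* ran from −0.28 to −0.19 and passed in 7 of 29 cases. Signs turned in some cases for differences near 0. These were *Cnr1* in female minimal responders against controls (−0.035 to 0.046) and in the sex difference in exposure (−0.048 to 0.074), *Faah* in female extreme (−0.025 to 0.074) and male minimal responders (−0.092 to 0.0013) against controls, and *Mgll* in male minimal responders against controls (−0.015 to 0.21) and in exposure (−0.021 to 0.079).

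Rats of the same replicate number had a median r of 0.05 between their deviations from group means (28 pairs, 11 over 0.1). For rats of different numbers it was −0.01 (112 pairs, 37 over 0.1), so the numbers were not taken to pair rats. With the replicate number as a block, *Cnr1* in extreme against minimal responders of both sexes stood at −0.32 (adjusted p = 0.0273, limma), and this was again the 1 call among 33 tests. Signal over background limits *Gnai1*, which was above background in no minimal responder.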

Other observations

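*Fabp7*, brain fatty acid-binding protein, had low values in female minimal responders. Its levels were 12.63, 12.81, 12.66, 12.54 and 12.61 in female extreme responders, 12.08, 12.09, 12.13, 12.33 and 11.93 in female minimal responders, and 13.08, 12.88, 12.71, 12.85 and 12.75 in female controls. All minimal responders lay below all extreme responders and controls, and the extreme responders overlapped the controls. The share of all probes that separate these female groups was not counted. The difference between minimal responders and controls (−0.74 ± 0.16, SE) had an unadjusted p of 5.0e-05 in limma and missed the threshold once adjusted (adjusted p = 0.0891, or 0.0660 with the array set as a block). In males the groups overlapped, with 11.15 in male extreme 4 as the lowest value of all. The gene was singled out after its values were seen.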
